A study of Mus musculus with 45 samples.

Results

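NF-kappaB factors and their inhibitors were followed in NIH-3T3 cells, an established line of mouse embryonic fibroblasts, by the 9 genes that could be measured out of 10 listed. The 10 genes were Nfkbia, Nfkbie, Nfkbiz, Tnfaip3, Nfkb1, Nfkb2, Rel, Rela, Relb and Ikbkg. The genes were listed by name with earlier results of these data known, and a probe set counted when the array's annotation gave it 1 gene symbol and that symbol was a member. This gave 23 probe sets of 31390 and 9 genes of 13232, and Nfkb1 was not analysed here. Each gene is described by its probe set with the highest mean over all 45 arrays, and its other probe sets are set beside it.

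NF-kappaB is a family of transcription factors that act as pairs. Rela, Relb and Rel carry the activation domain, while Nfkb1 and Nfkb2 encode precursors that are cut to the DNA-binding partners p50 and p52. In resting cells the IkappaB proteins, among them those of Nfkbia and Nfkbie, hold the pairs in the cytoplasm. The IkappaB kinase complex, of which Ikbkg (NEMO) is the regulatory subunit, marks them for destruction, and the freed factors then switch on Nfkbia and Tnfaip3, which close the loop. Tnfaip3 encodes A20, a ubiquitin-editing enzyme that shuts off signalling upstream of the kinase. Nfkbiz encodes IkappaB-zeta, a nuclear member of the inhibitor family that also acts as a co-activator. In fibroblasts the pathway is known for its fast response to cytokines and serum.

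Transcripts were measured on Affymetrix arrays in 11 groups, and each experiment began with fresh medium. Total RNA was taken after 1 h and 2 h of actinomycin D at 5 µg/ml, which blocks transcription, and before the drug. Cells labelled with the uridine analogue 4-thiouridine (4sU) gave newly transcribed RNA, which carries the label, and total RNA. The labelled RNA was taken at 15 min and 30 min with 500 µM 4sU and at 60 min with 200 µM. Total RNA was taken at the 2 later times, and RNA made earlier, which passed unlabelled, was kept as pre-existing RNA at 60 min. A further 60 min experiment at 200 µM with newly transcribed and total RNA is named 2F in the labels, which do not explain this name. The titles of the 15 min and both 60 min experiments, and not those of the 30 min one, hold the unexplained word mock. Each group had 3 arrays, except newly transcribed and total RNA at 30 min with 9 each. All the labelled cells, total RNA included, had received 4sU together with the fresh medium, and the 4sU dose differed between 30 min and 60 min, so neither can be told apart from labelling time. The labels do not say whether replicates are separate cultures, so p-values measure the spread between these arrays, which may be technical.

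Values are log2 of the intensity the authors deposited, and changes are log2 differences ± standard error from limma. Calls needed an adjusted p below 0.05 (Benjamini-Hochberg, across every probe set in the comparison) as well as a 2-fold change, and testing needed a mean log2 of at least 5 over the arrays compared. "Rose" and "fell" are used of called changes. A probe set with a group mean below 5 could pass through its higher group alone. Its difference is then also given with every array set to at least 5, which is a lower bound, and counts of members are also given without it. Since probes differ in how brightly they bind, levels are compared between samples and not between genes. Newly transcribed RNA is a part of total RNA, so a higher value there is a relative enrichment and not a larger amount.

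The promoters of the members were read first, because the feedback loop runs through NF-kappaB sites there. The motif searched was GGG, any pair of bases, TT, any base and CC, on either strand, in the 250 bases before each transcription start in RefSeq's GRCm38.p6 annotation. It was present in 1350 of 32851 promoters, or 4.11%. Of 7 members with a promoter in that table, 5 held it in at least 1 of their windows (6 of 13 windows): Nfkbia, Tnfaip3, Nfkb2, Rel and Ikbkg. Nfkbie and Rela held no match in these windows. The last 100 bases before the start are shown for the 4 members whose match lay there, with the match in capitals and each sequence on the strand of its gene.
Nfkbia, chr12:55492648-55492747, minus strand: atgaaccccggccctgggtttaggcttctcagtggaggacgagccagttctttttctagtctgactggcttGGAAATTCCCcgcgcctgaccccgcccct
Tnfaip3, chr10:19015411-19015510, minus strand: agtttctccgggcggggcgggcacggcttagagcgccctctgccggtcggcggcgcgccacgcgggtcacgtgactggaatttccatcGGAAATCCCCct
Nfkb2, chr19:46304637-46304736, plus strand: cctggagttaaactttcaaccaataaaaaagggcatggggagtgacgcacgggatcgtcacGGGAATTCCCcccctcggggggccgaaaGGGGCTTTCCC
Rel, chr11:23770970-23771069, minus strand: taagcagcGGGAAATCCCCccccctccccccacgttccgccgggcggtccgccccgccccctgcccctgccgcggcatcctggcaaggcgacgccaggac

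The Nfkbia match began 29 bases and the Tnfaip3 match 12 bases before the start. Nfkb2 held 3 matches in that window, 1 of them palindromic and the other 2 overlapping in the capitals that end the sequence, and Rel held 2 that overlap. A match is a description of the letters and not a measured site. Of the 4 genes shown, Nfkbia and Tnfaip3 were called higher in newly transcribed than in total RNA at 30 min, Nfkb2 was called by 1 of its 2 probe sets, not the brighter one, and Rel was too dim there to be tested.

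The arrays carried 3 features that touch the results. The 9 arrays at 30 min fell into 3 sets by replicate number (1, 4 and 7; 2, 5 and 8; 3, 6 and 9). Deviations from the group mean correlated at 0.59 to 0.78 within a set and -0.75 to 0.51 between sets for newly transcribed RNA, and at 0.62 to 0.92 against -0.74 to 0.08 for total RNA. The labels do not explain these sets, so the 9 arrays may not be 9 independent samples, and calls that end when each set is averaged to 1 value are given with that value. In the first 60 min experiment, replicate 1 of newly transcribed RNA and replicate 2 of total RNA stood apart, with median correlations to their group of 0.831 and 0.874, against 0.911 to 0.997 for the 39 arrays outside the new and total RNA of that experiment. On that array of newly transcribed RNA the 3' control probe set for Gapdh exceeded the 5' one by 3.07 log2, against -0.43 to 0.90 on those 39 arrays. On the total RNA array the 3' control for Actb exceeded the 5' one by 3.08, against 0.52 to 1.54 on those 39. In total RNA at 30 min that Actb difference was 1.503, 1.37 and 1.29 in replicates 2, 5 and 8, against 0.52 to 0.70 in the other 6.

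All 14 fibroblast markers were present at a mean log2 of 5 or more. Of 14 leukocyte, epithelial and endothelial markers with a probe set, 1 reached that level, Cd14, whose group means ran between 3.59 and 7.54, and its part in the results was not tested. The group means of Csf1r, Epcam and Cdh5, defining markers of the 3 cell types, were at most 3.22, 4.40 and 2.30. An array averages over all cells of a dish, so a change in every cell and a change in some cells cannot be told apart.

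**Figure D1:**
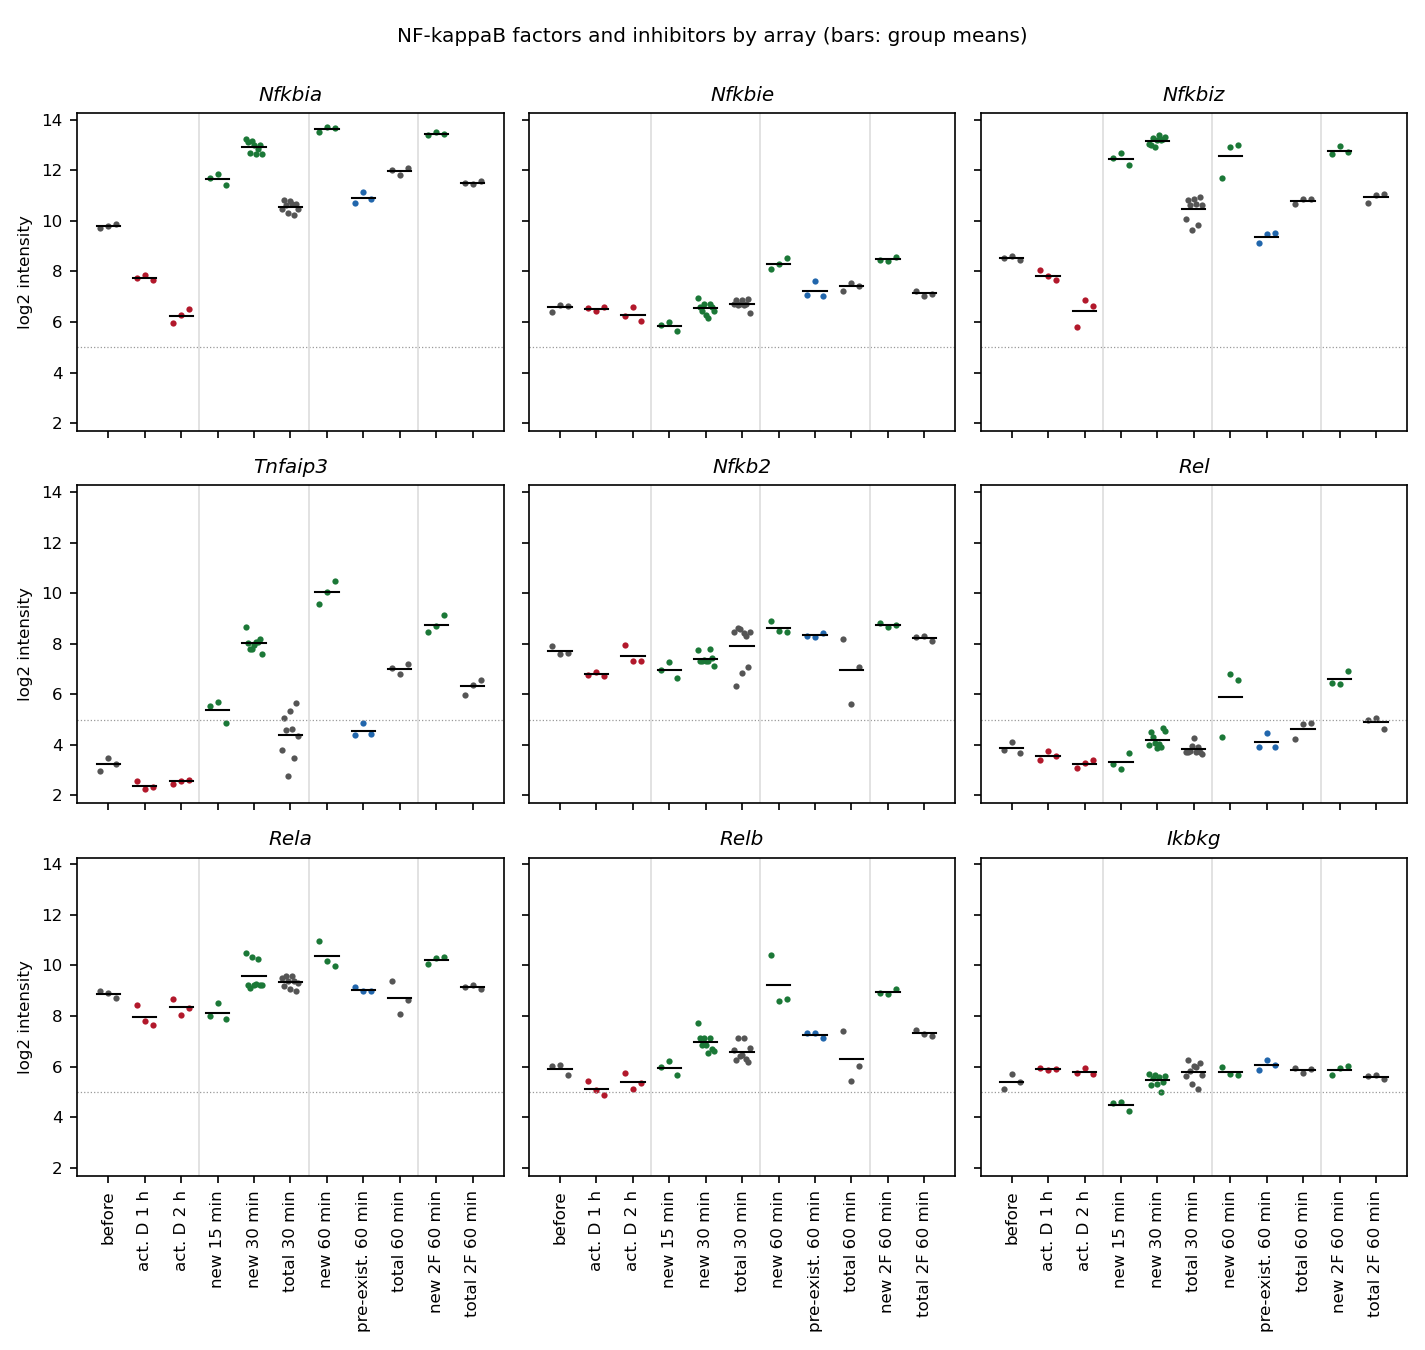
Each panel plots the log2 intensity of 1 member by array (points) with group means (bars) over the 11 groups: red for actinomycin D, green for newly transcribed, blue for pre-existing and grey for total RNA, with a dotted line at the filter level of 5. Nfkbia, Nfkbiz and Tnfaip3 stand highest in newly transcribed RNA, Nfkbia and Nfkbiz drop after actinomycin D, and Ikbkg group means stay between 4.48 and 6.05.

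When transcription was blocked, the 2 inhibitors Nfkbia and Nfkbiz were the members that fell by their brightest probe set. Nfkbia (IkappaB-alpha, chr12:55489409-55492647) measured 9.70, 9.78 and 9.87 before the drug, 7.73, 7.84 and 7.64 after 1 h and 5.95, 6.28 and 6.53 after 2 h. The 3 times did not overlap. It fell by 2.05 ± 0.15 at 1 h (adjusted p = 5.4e-05), a 4.13-fold loss, and by 3.53 ± 0.15 at 2 h (adjusted p = 2.3e-07), an 11.6-fold loss. Reading a half-life assumes exponential decay, a complete block and an array scale that a general loss of RNA does not shift. The last was not tested. On these assumptions the changes correspond to a half-life of 29.3 min (95% interval 25.3 to 34.9) over the first hour and 34.0 min (31.1 to 37.4) over both.

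The other 3 probe sets of Nfkbia that were tested fell as well. At 1 h 1449731_s_at fell by 3.75 ± 0.16, and the half-lives over the first hour were 16.0, 21.6 and 27.3 min, against 29.3 min by 1438157_s_at. At 2 h all 3 lay below 5 on every array, so that with levels set to at least 5 their changes of -4.83, -4.04 and -3.32 are bounds, and no half-life is read from them. The fifth, 1420089_at, measured 2.65 to 3.34 in these 9 arrays and was not tested.

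Nfkbiz (chr16:55811375-55838954) was called at 2 h and not at 1 h. It measured 8.52, 8.61 and 8.44 before the drug, 8.04, 7.82 and 7.65 after 1 h and 5.82, 6.87 and 6.62 after 2 h. The 1 h change of -0.69 ± 0.23 was under the fold threshold (adjusted p = 0.043), and at 2 h it fell by 2.09 ± 0.23 (adjusted p = 9.8e-05). The step between 2 h and 1 h was -1.40 ± 0.23 for Nfkbiz (adjusted p = 0.0015) and -1.49 ± 0.15 for Nfkbia (adjusted p = 8.5e-05), 2 of 7 members against 7.55% of all genes called lower. The Nfkbiz half-life over 2 h by this probe set was 57.4 min (46.0 to 76.6), or 67.4 min without replicate 1 at 2 h, its lowest array. The other Nfkbiz probe sets were too dim to be tested. Probe set 1457404_at averaged 5.92 before the drug, 3.62 at 1 h and 3.95 at 2 h, so its drop lay in the first hour. For 1448728_a_at the means were 5.04, 4.54 and 3.37. Every array after the drug was below 5 in both, and no half-life is read from them.

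At 1 h, 1 of 7 members tested was called lower against 3.97% of all genes, counted by 1 probe set per gene, and at 2 h 2 of 7 against 10.9%. Tnfaip3 and Rel were too dim in these arrays to be tested. Tnfaip3 measured 2.97 to 3.48 before the drug and 2.26 to 2.60 after it, near the low end of the scale, so its decay could not be read.

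None of the factors was called by its brightest probe set. Rela (chr19:5637442-5648134), the main activating subunit, measured 8.99, 8.91 and 8.70 before the drug, 8.45, 7.82 and 7.65 at 1 h and 8.69, 8.04 and 8.33 at 2 h. Its change was -0.89 ± 0.22 at 1 h (adjusted p = 0.012) and -0.51 ± 0.22 at 2 h (adjusted p = 0.099). The 1 h change was called without replicate 1 of that group, at -1.13.
Relb, the partner of p52 in the alternative pathway, changed by -0.78 ± 0.20 and -0.52 ± 0.20 at the 2 times, again below the fold threshold.

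Nfkb2 (chr19:46300994-46312400), which encodes the p52 precursor, was lowest at 1 h and not at 2 h. It measured 7.91, 7.61 and 7.64 before the drug, 6.75, 6.89 and 6.72 at 1 h and 7.94, 7.32 and 7.30 at 2 h. The 1 h change was -0.93 ± 0.17 (adjusted p = 0.0037) and the 2 h change -0.20 ± 0.17 (adjusted p = 0.39). Its second probe set, 1429128_x_at, showed the same course with called steps: it fell by 1.35 ± 0.18 at 1 h (adjusted p = 0.00093) and was 1.68 ± 0.18 higher at 2 h than at 1 h (adjusted p = 0.00013).

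Nfkbie (IkappaB-epsilon) changed by -0.06 ± 0.15 and -0.29 ± 0.15, with 95% intervals of -0.39 to 0.28 and -0.63 to 0.05, and Ikbkg by 0.49 ± 0.15 and 0.38 ± 0.15. The median change of the 7 members was -0.78 at 1 h and -0.51 at 2 h, against 0.03 and 0.06 for all genes. As points of comparison, Myc, a short-lived growth regulator, fell by 3.16 ± 0.19 at 1 h, and Actb, a cytoskeletal gene, changed by -0.10 ± 0.09.

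**Figure D2:**
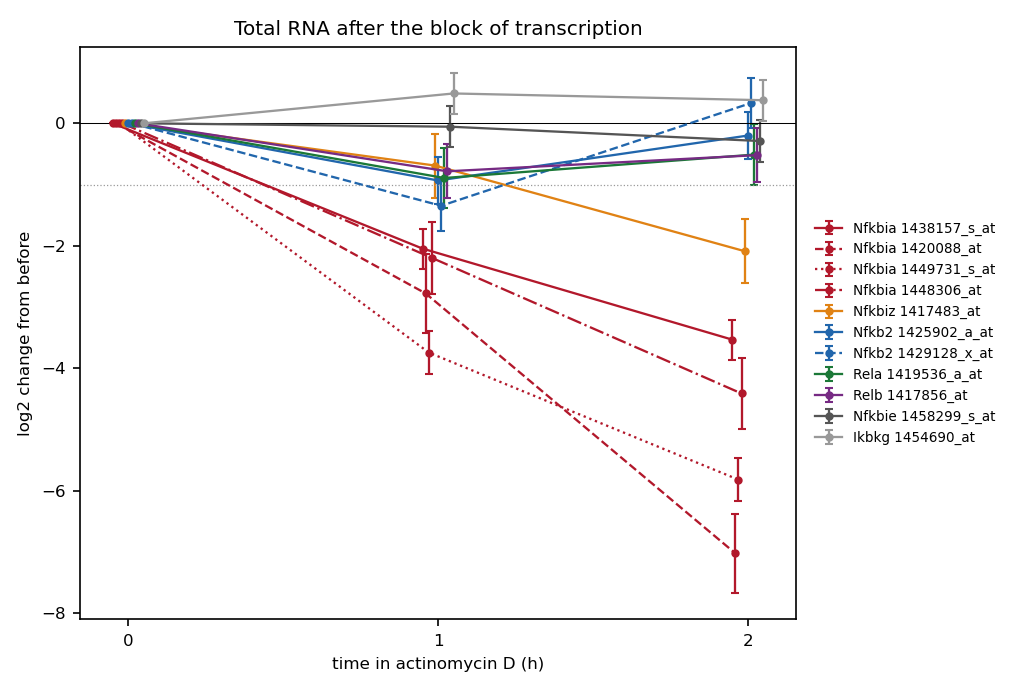
The plot gives the log2 change of total RNA from the level before the drug at 1 h and 2 h of actinomycin D, with 95% intervals, for the probe sets named in the legend (3 arrays per time). The 4 Nfkbia probe sets reach -3.53 to -7.03 at 2 h, 3 of them from levels below 5 there, and Nfkbiz reaches -2.09, while both Nfkb2 probe sets are lower at 1 h than at 2 h.

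Among 38 tested genes of a wider list of NF-kappaB signalling components, none rose, 3 fell at 1 h and 8 fell at 2 h, against the 3.97% and 10.9% of all genes. At 2 h Nkrf, a repressor of NF-kappaB targets, fell by 2.64 ± 0.14. Bcl3, a nuclear IkappaB protein, fell by 2.40 ± 0.25, and Birc3 (cIAP2), a ubiquitin ligase at the TNF receptor, fell by 2.30 ± 0.17. The adaptor Traf2 fell by 2.08 ± 0.19. Bcl3 had already fallen by 1.32 ± 0.25 at 1 h.
Of 17 tested target genes, 3 fell at 1 h and 4 at 2 h, against the same 3.97% and 10.9%. They included Irf1, an interferon-responsive transcription factor, which changed by -2.09 ± 0.20 at 1 h and -3.20 ± 0.20 at 2 h, and Ier3, an early-response survival gene, which fell by 1.86 ± 0.15 at 2 h.

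In newly transcribed RNA at 30 min, the inhibitors Tnfaip3, Nfkbiz and Nfkbia stood far above total RNA. The factors tested, by their brightest probe sets, did not. Tnfaip3 (chr10:19000910-19015410) measured between 7.59 and 8.68 in the 9 newly transcribed samples, median 8.04, against 2.77 to 5.66 in the 9 total samples, median 4.58. The groups did not overlap, and the difference was 3.61 ± 0.30 (adjusted p = 1.1e-09), with 6 of 9 total RNA arrays below 5. With levels set to at least 5 the difference was at least 2.90. In total RNA the set means were 3.34, 5.35 and 4.52, so its total level depended on the set of arrays.

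Nfkbiz measured 12.9 to 13.4 in newly transcribed RNA, median 13.2, against 9.65 to 10.9 in total RNA, median 10.6. The difference was 2.72 ± 0.16 (adjusted p = 7.8e-12). Its other probe sets gave larger differences, 3.66 ± 0.12 for 1448728_a_at and 4.12 ± 0.25 for 1457404_at. Nfkbia measured 12.6 to 13.2 in newly transcribed RNA, median 13.0, against 10.2 to 10.8 in total RNA, median 10.6, a difference of 2.37 ± 0.11 (adjusted p = 1.9e-13). Its 4 other probe sets gave 2.26 to 2.73. Of these 1420089_at passed through newly transcribed RNA alone, and with levels set to at least 5 its difference was at least 1.34. Fos and Myc, textbook early-response genes, differed by 2.73 ± 0.11 and 2.77 ± 0.15 and Actb by 0.52 ± 0.06. The 3 inhibitors were also called with the arrays averaged by set. With 3 of 8 tested members called higher (2 of 7 without Tnfaip3, which passed through newly transcribed RNA), the share among all genes was 14.4%.

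The 5 other members tested had a change below the fold threshold. Relb differed by 0.37 ± 0.16 (adjusted p = 0.044) and Rela by 0.26 ± 0.20 (adjusted p = 0.23), each with overlapping groups. The 3 Rela arrays of set 1, 4 and 7 averaged 10.4 in newly transcribed RNA and the other 2 sets 9.22 and 9.20, against 9.43, 9.08 and 9.49 in total RNA. The Gapdh 3' minus 5' difference was 0.29 to 0.90 on those 3 newly transcribed arrays and -0.14 to 0.08 on the other 6, and its part in the Rela level was not tested. Nfkbie differed by -0.17 ± 0.11 and Ikbkg by -0.32 ± 0.15.

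For Nfkb2 the probe sets disagreed. Probe set 1425902_a_at differed by -0.49 ± 0.28 (adjusted p = 0.12), with 7.12 to 7.78 in newly transcribed RNA against 6.32 to 8.62 in total RNA. In total RNA its set 2, 5 and 8 averaged 6.74, against 8.44 and 8.51 in the other 2, and these 3 arrays are those with the higher Actb 3' minus 5' difference, whose part in the result was not tested. Probe set 1429128_x_at was higher in newly transcribed RNA by 1.45 ± 0.22 (adjusted p = 5.8e-06).

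After 60 min of labelling Relb and Rela were called in both experiments beside Tnfaip3, Nfkbia and Nfkbiz. In the first 60 min experiment 6 of 8 tested members were higher in newly transcribed than in total RNA, against 15.6% of all genes. Tnfaip3 measured 9.56, 10.1 and 10.5 in newly transcribed RNA, against 7.02, 6.82 and 7.18 in total RNA, a difference of 3.03 ± 0.29 (adjusted p = 0.0001). The other 2 inhibitors called were Nfkbiz, at 1.75 ± 0.35, and Nfkbia, at 1.66 ± 0.23.

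Relb (chr7:19606217-19629438) measured 10.4, 8.59 and 8.69 in newly transcribed RNA, against 7.40, 5.45 and 6.01 in total RNA. The difference was 2.94 ± 0.56 (adjusted p = 0.0024). Replicate 1 was the highest array in both groups, which still did not overlap. Rela measured 10.96, 10.19 and 9.98 in newly transcribed RNA, against 9.37, 8.07 and 8.64 in total RNA, a difference of 1.69 ± 0.37 (adjusted p = 0.0047). Nfkb2 measured 8.89, 8.52 and 8.45 in newly transcribed RNA, against 8.17, 5.61 and 7.08 in total RNA, a difference of 1.67 ± 0.52 (adjusted p = 0.026).
The array at 5.61 was replicate 2 of total RNA, which stood apart and had the Actb difference of 3.08, whose part was not tested. Without it and replicate 1 of newly transcribed RNA, Relb differed by 1.93 ± 0.39, Rela by 1.08 ± 0.26 and Nfkb2 by 0.86 ± 0.32, of which Relb and Rela were called. The Nfkb2 call also ended without replicate 1 or 2 of newly transcribed RNA or replicate 3 of total RNA (adjusted p 0.052 to 0.061). Without the 2 arrays that stood apart Nfkbie, at 0.90 ± 0.26 over all arrays, reached 1.08 ± 0.24 and was called.

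In the 2F experiment 7 of 9 members were higher in newly transcribed RNA, against 18.8% of all genes, or 6 of 8 without Rel, which passed through its higher group. Tnfaip3 differed by 2.44 ± 0.20, Nfkbia by 1.94 ± 0.09, Nfkbiz by 1.85 ± 0.13, Relb by 1.62 ± 0.10 and Rela by 1.07 ± 0.11. Relb measured 8.90, 8.87 and 9.06 in newly transcribed RNA, against 7.45, 7.30 and 7.21 in total RNA. Nfkbie (chr17:45555700-45563169) measured 8.45, 8.42 and 8.58, against 7.23, 7.04 and 7.12, a difference of 1.35 ± 0.09 (adjusted p = 1.3e-06). Its dimmer probe set 1431843_a_at was called in both 60 min experiments, at 2.08 ± 0.41 in the first and 1.13 ± 0.11 in the 2F one, and was not tested at 30 min. In the first it passed through newly transcribed RNA, and with levels set to at least 5 the difference was at least 1.66. The second Tnfaip3 probe set, 1450829_at, had a mean of 2.90 over all arrays and was tested nowhere.

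Rel (c-Rel, chr11:23736847-23770969), a factor best known from lymphocytes, passed the filter in this comparison alone. It measured 6.44, 6.42 and 6.94 in newly transcribed RNA, against 4.97, 5.08 and 4.62 in total RNA, a difference of 1.71 ± 0.17 (adjusted p = 1.3e-05), or at least 1.57 with levels set to at least 5. In the first 60 min experiment it measured 4.31, 6.81 and 6.56 in newly transcribed RNA, the low array being the one that stood apart, and 4.23 to 4.85 in total RNA, and in both 30 min groups it was at most 4.65.
Nfkb2 at 0.52 ± 0.09 and Ikbkg at 0.27 ± 0.11 were not called. Probe set 1429128_x_at of Nfkb2 was again higher, by 1.82 ± 0.10.

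**Figure D3:**
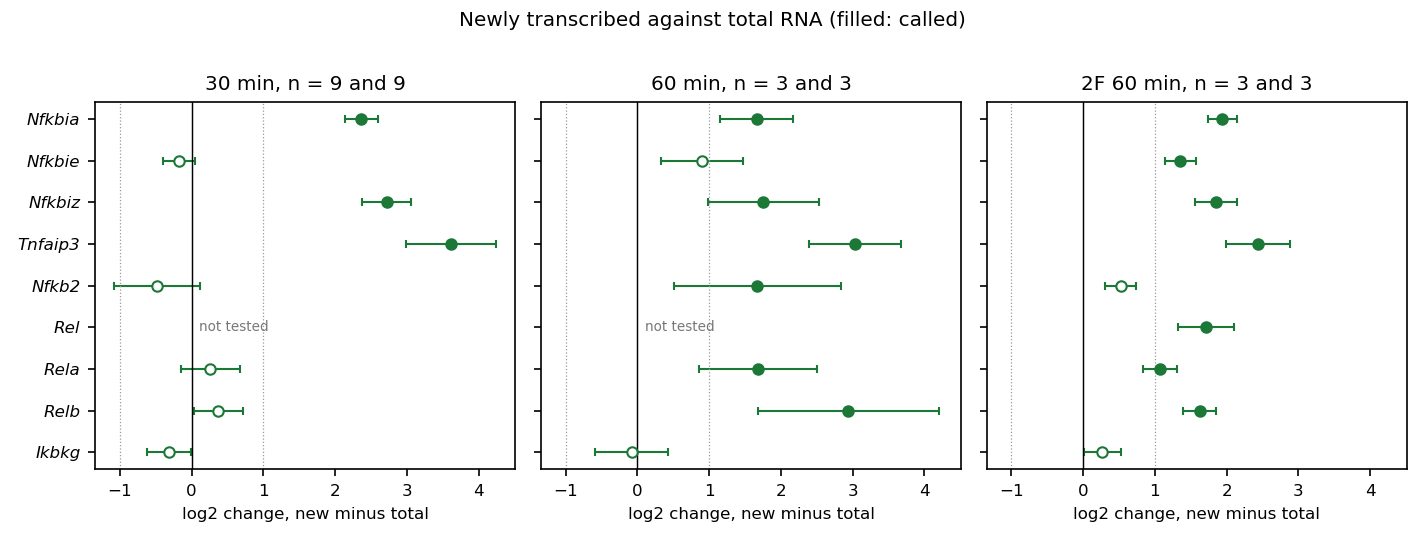
Each panel gives the log2 change of newly transcribed over total RNA with its 95% interval for each member in the 30 min, the first 60 min and the 2F 60 min experiment, with filled points for called changes and dotted lines at 2-fold. At 30 min the called points are Tnfaip3, Nfkbiz and Nfkbia, and in the 2F experiment all members but Nfkb2 and Ikbkg.

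Whether the ratio of new to total RNA differed between experiments was tested directly. It was larger in the first 60 min experiment than at 30 min for Relb (2.57 ± 0.50, adjusted p = 0.0017), Nfkb2 (2.15 ± 0.63), Rela (1.42 ± 0.43) and Nfkbie (1.07 ± 0.22), 4 of 8 members against 15.3% of all genes called in either direction. The Nfkb2 probe set 1429128_x_at changed less, in the same direction. It averaged 9.45 in new (SD 1.20) and 6.72 in total RNA at 60 min, against 8.58 and 7.13 at 30 min. By its brightest probe set Nfkbia had a smaller ratio at 60 min (-0.70 ± 0.22, adjusted p = 0.024), under the fold threshold. Probe set 1448306_at went the other way. It averaged 13.59 in new and 9.81 in total RNA at 60 min, against 12.02 and 9.29 at 30 min. Its total RNA arrays at 60 min ran from 8.81 to 10.84. For 1449731_s_at these means were 13.04, 10.83, 12.07 and 9.79, a nearly unchanged ratio. Those of 1420088_at were 13.35, 12.13, 12.71 and 10.45, a smaller ratio at 60 min. Those of 1420089_at were 7.78, 6.22, 6.61 and 4.30, the last with 6 of 9 arrays below 5. With levels set to at least 5 its 30 min difference was at least 1.34, so no direction is read for 1420089_at. With the 30 min arrays averaged by set limma called 0 probe sets of 15933 and none of these members, whose adjusted p were 0.14 to 0.28, although 2854 probe sets had an unadjusted p below 0.05. Without either array that stood apart the Nfkb2 and Rela calls ended, and without replicate 3 of newly transcribed or replicate 1 of total RNA the Nfkbie value was 0.96 or 0.98, under the threshold.
For the 2F experiment 2 of 8 members differed, against 3.96% of all genes called in either direction. The ratio was larger than at 30 min for Nfkbie by 1.53 ± 0.19 (adjusted p = 5e-05) and for Relb by 1.25 ± 0.30 (adjusted p = 0.0084). Both calls were made with averaged sets too, but the Relb call ended with replicates 1 to 3 alone at 30 min (adjusted p = 0.093). For the inhibitors that led at 30 min the estimates by the brightest probe sets were negative and not called: -1.17 ± 0.56 for Tnfaip3, -0.86 ± 0.30 for Nfkbiz and -0.43 ± 0.19 for Nfkbia. The other Nfkbiz probe sets had ratios more than 2-fold smaller in the 2F experiment. Probe set 1448728_a_at averaged 9.27 in new and 7.09 in total 2F RNA, against 10.63 and 6.97 at 30 min. For 1457404_at the means were 7.65 and 5.30, against 10.30 and 6.17. Both 60 min experiments were set against the same 30 min arrays.

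Of the signalling list, 8 genes were higher and 9 lower in newly transcribed RNA at 30 min among 45 tested, against 14.4% of all genes called higher and 29.1% lower. Map3k14 (NIK), the kinase of the alternative pathway, was higher by 3.04 ± 0.19, and Bcl10, an adaptor of the kinase complex, by 1.72 ± 0.11, while Commd1, which promotes the turnover of Rela, differed by -2.47 ± 0.15. Their differences in the 2F experiment were 2.66 ± 0.12, 1.74 ± 0.12 and -2.76 ± 0.12.
Of the target list, 14 genes were higher and 1 lower among 20 tested at 30 min, against the same 14.4% and 29.1%, with a median of 1.70 against -0.33 over all genes. The cytokine Lif was higher by 3.42 ± 0.28, the AP-1 subunit Junb by 2.96 ± 0.22 and the chemokine Cxcl1 by 2.61 ± 0.24. In the 2F experiment 14 of 20 were higher, and 1 was lower, Saa3, an acute-phase protein, at -2.14 ± 0.09, against 18.8% of all genes called higher and 22.5% lower.

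In pre-existing RNA at 60 min Tnfaip3, Nfkbiz and Nfkbia were lower than in total RNA by their brightest probe sets. These total RNA arrays are those set against newly transcribed RNA above. Tnfaip3 measured 4.39, 4.85 and 4.43 in pre-existing RNA, against 7.02, 6.82 and 7.18 in total RNA, a difference of -2.44 ± 0.29 (adjusted p = 0.00035). All 3 pre-existing arrays lay below 5, and with levels set to at least 5 it was -2.003, a bound. Nfkbiz measured 9.14, 9.48 and 9.51, against 10.7, 10.9 and 10.9, a difference of -1.42 ± 0.35 (adjusted p = 0.031). Nfkbia measured 10.7, 11.1 and 10.9, against 12.0, 11.8 and 12.1, a difference of -1.07 ± 0.23 (adjusted p = 0.015). Its probe set 1448306_at averaged 9.64 in pre-existing and 9.81 in total RNA, whose arrays ran from 8.81 to 10.84. The same means of 1420088_at were 10.49 and 12.13, those of 1449731_s_at 9.66 and 10.83, and those of 1420089_at 5.17 and 6.22.
Tnfaip3, Nfkbiz and Nfkbia were 3 of 8 members tested, or 2 of 7 without Tnfaip3, against 2.81% of all genes called lower. With 1 array left out at a time, 1 to 4 members were called. The Nfkbiz call ended without replicate 1, 2 or 3 of pre-existing or replicate 2 or 3 of total RNA, and the Nfkbia call without replicate 1 or 3 of pre-existing or replicate 3 of total RNA (adjusted p 0.067 to 0.15). Without replicate 1 of total RNA Nfkb2 was called, at 1.99, by its brightest probe set. Its other probe set, 1429128_x_at, averaged 6.56 in pre-existing and 6.72 in total RNA over all arrays. The factors had no called change: Nfkb2 differed by 1.38 ± 0.52, Relb by 0.96 ± 0.56 and Rela by 0.35 ± 0.37. Neither was the inhibitor Nfkbie called, at -0.17 ± 0.26, nor the kinase subunit Ikbkg, at 0.18 ± 0.23. The dimmer Nfkbie probe set 1431843_a_at averaged 5.59 in pre-existing and 4.73 in total RNA. With levels set to at least 5 the difference of that probe set was 0.44 and not called. By limma 0 of 44 tested genes of the signalling list were called, and 11 had an unadjusted p below 0.05.
A half-life can also be read from the share of new RNA after 60 min when total RNA is constant, which total Nfkbia was not. The line across 9047 probe sets that sets its scale was nearly flat, with a slope of -0.03, and the values it gave, 451 min for Nfkbia (95% interval 311 to 648) and 443 min for Rela (241 to 800), moved between 137 and 1484 min with 1 array left out, so they are not used further.

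Newly transcribed RNA was then compared over labelling time. At 15 min, 4 of 8 tested members were lower than at 30 min, against 8.93% of all genes. Without Ikbkg, which passed through its 30 min level, these were 4 of 7. Tnfaip3 measured 5.54, 5.69 and 4.85 at 15 min, 7.59 to 8.68 at 30 min and 9.56, 10.1 and 10.5 at 60 min. The difference of 15 min from 30 min was -2.66 ± 0.22 (adjusted p = 2.3e-05) and that of 60 min from 30 min was 2.01 ± 0.23 (adjusted p = 7.9e-05). Tnfaip3 in the 2F experiment, at 8.45, 8.69 and 9.13, differed from 30 min by 0.73 ± 0.20 and was not called.

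Nfkbia measured 11.7, 11.8 and 11.4 at 15 min, 12.6 to 13.2 at 30 min and 13.5, 13.7 and 13.6 at 60 min. By its brightest probe set it differed at 15 min from 30 min by -1.27 ± 0.16 (adjusted p = 0.00011). The same probe set did not pass the fold threshold at 60 min (0.70 ± 0.17) or in the 2F experiment (0.53 ± 0.15). Probe sets 1448306_at and 1420089_at were more than 2-fold higher at 60 min than at 30 min. They averaged 13.59 and 7.78, against 12.02 and 6.61. In the 2F experiment they averaged 12.98 and 6.77, less than 2-fold above 30 min. For 1449731_s_at and 1420088_at, less than 2-fold higher at 60 min, the means were 13.04 and 13.35, against 12.07 and 12.71. The 15 min level differed from 30 min by -1.46 ± 0.33 for Rela and -1.003 ± 0.22 for Relb. The Relb call sits at the fold threshold and ends without replicate 3 at 15 min (-0.86) or with replicates 4 to 9 alone at 30 min (-0.87). Ikbkg, at 4.57, 4.61 and 4.25 at 15 min and 4.99 to 5.70 at 30 min, lay just under the threshold at -0.98 ± 0.16, and passed it without replicate 1 or 2 at 15 min (-1.03 and -1.05). All its 15 min arrays lay below 5, and with levels set to at least 5 the difference was -0.46, a bound, and was not called.

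By their brightest probe sets, Relb, Nfkbie and Nfkb2 were higher in both 60 min experiments than at 30 min. Relb was higher at 60 min than at 30 min by 2.26 ± 0.34 and in the 2F experiment by 1.98 ± 0.21. Nfkbie was higher by 1.76 ± 0.19 and 1.94 ± 0.16, and Nfkb2 by 1.21 ± 0.18 and 1.32 ± 0.14. The other Nfkb2 probe set, 1429128_x_at, was less than 2-fold higher in both experiments. It averaged 9.45 at 60 min (SD 1.20) and 8.89 in the 2F experiment, against 8.58 at 30 min. Tnfaip3 made 4 of 8 members called higher at 60 min against 5.77% of all genes, and the 3 others 3 of 8 in the 2F experiment against 4.04%.
For the first 60 min experiment, same-numbered arrays deviated together, and with the replicate number as a block only Relb of the 4 was called (adjusted p = 0.047), Nfkbie, Tnfaip3 and Nfkb2 having adjusted p of 0.054, 0.067 and 0.067. With the 30 min arrays averaged by set, Nfkbie and Tnfaip3 were called and Relb and Nfkb2 had adjusted p of 0.056 and 0.055. In the 2F experiment all 3 calls were made with averaged sets (adjusted p 0.0025 to 0.0033).

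Nfkbiz gave a different course by probe set. Probe set 1457404_at was brightest at 15 min, at 11.8, 11.5 and 11.9, followed by 9.58 to 11.2 at 30 min and 6.41, 8.62 and 8.70 at 60 min. The 15 min level was 1.42 ± 0.31 above 30 min (adjusted p = 0.0026), and the 60 min level differed from 30 min by -2.39 ± 0.45 (adjusted p = 0.002) and the 2F level by -2.65 ± 0.31.
Probe set 1448728_a_at was lower than at 30 min both at 15 min, at -1.30 ± 0.20, and in the 2F experiment, at -1.36 ± 0.20. The brightest, 1417483_at, measured 12.5, 12.7 and 12.2 at 15 min and differed from 30 min by -0.72 ± 0.14, by -0.63 ± 0.24 at 60 min and by -0.40 ± 0.13 in the 2F experiment, none of them called. Without the newly transcribed array that stood apart, the 60 min differences were -0.21 ± 0.15 for 1417483_at and -1.64 ± 0.37 for 1457404_at, the second still called (adjusted p = 0.0072). The annotation used here does not say which part of the transcript each probe set reads.

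**Figure D4:**
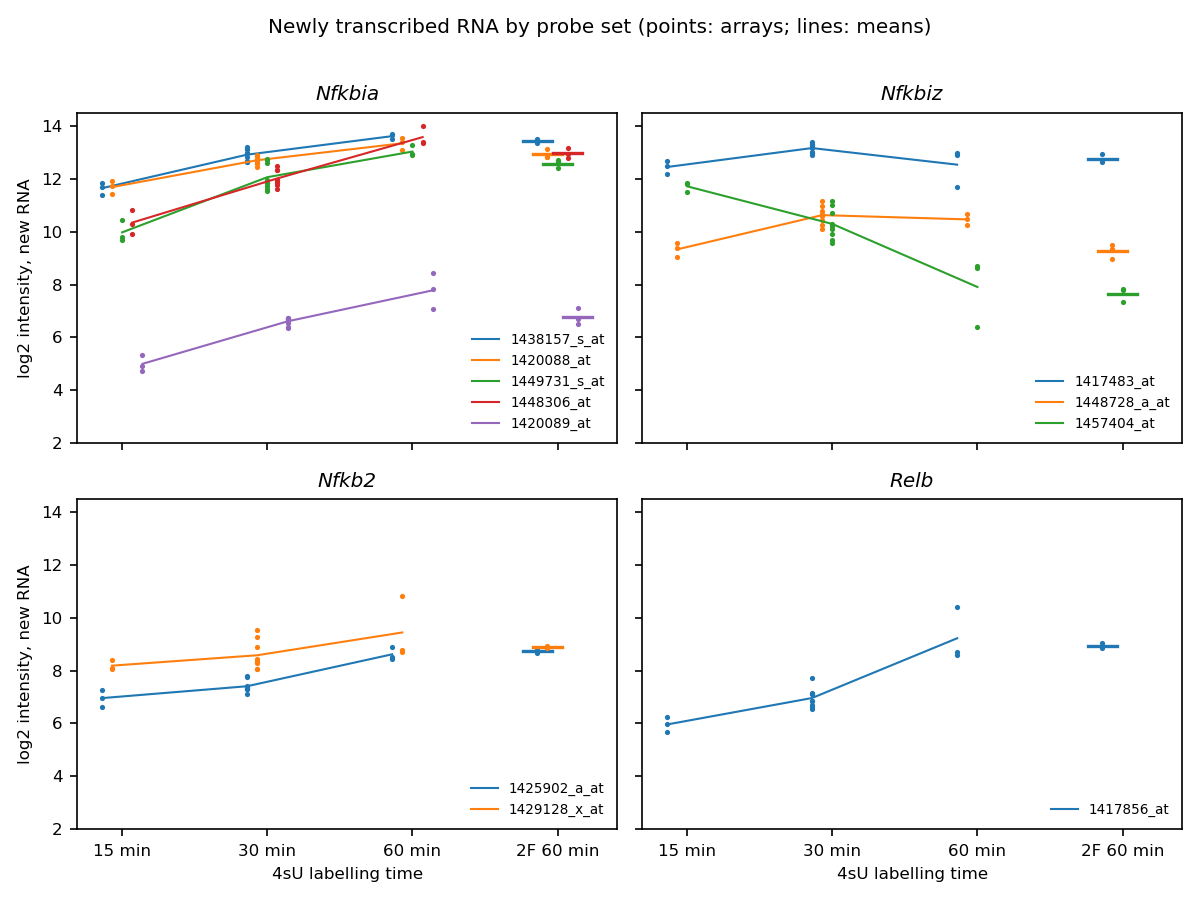
The panels plot log2 intensity in newly transcribed RNA by labelling time for every probe set of Nfkbia, Nfkbiz, Nfkb2 and Relb (points are arrays, lines join the means of 15, 30 and 60 min, and short bars give the mean of the 2F experiment). All 5 Nfkbia probe sets and Relb are lowest at 15 min, while Nfkbiz 1457404_at is highest there.

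Total RNA of labelled cells was compared with cells before the start, a comparison that joins the effects of fresh medium, 4sU and time. The arrays before the start are titled before actinomycin D, so a difference between experiments cannot be told apart from these effects. All 3 such comparisons use the same 3 arrays before the start as the actinomycin D ones. At 30 min Nfkbiz was the member that rose by its brightest probe set. It measured 9.65 to 10.9 in total RNA, median 10.6, against 8.52, 8.61 and 8.44 before, a difference of 1.93 ± 0.26 (adjusted p = 0.0019), and its probe set 1448728_a_at differed by 1.93 ± 0.13. The third Nfkbiz probe set, 1457404_at, did not show this rise. It averaged 5.92 before, 6.17 at 30 min, 6.10 at 60 min and 5.30 in the 2F experiment. The same means of 1448728_a_at were 5.04, 6.97, 7.11 and 7.09. Nfkbiz was 1 of 7 members tested, against 0.465% of all genes called higher, and its adjusted p was 0.051 with the arrays averaged by set. Nfkbia differed by 0.77 ± 0.13 and Relb by 0.68 ± 0.21, neither called.

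At 60 min Tnfaip3, Nfkbiz and Nfkbia rose, 3 of 8 members against 1.2% of all genes, or 2 of 7 without Tnfaip3, which passed through its 60 min level. Tnfaip3 measured 7.02, 6.82 and 7.18 at 60 min, against 2.97, 3.48 and 3.24 before, a difference of 3.78 ± 0.21 (adjusted p = 0.00076) from a level near the low end of the arrays, and with levels set to at least 5 the difference was at least 2.003. Nfkbiz measured 10.7, 10.9 and 10.9, and differed by 2.26 ± 0.18 (adjusted p = 0.0023). Nfkbia measured 12.0, 11.8 and 12.1, against 9.70, 9.78 and 9.87 before, a difference of 2.18 ± 0.18 (adjusted p = 0.0026).
Nfkbie was 0.82 ± 0.19 higher, which was not called. Relb, Rela and Nfkb2 differed by 0.38 ± 0.47, -0.17 ± 0.33 and -0.77 ± 0.58, and without the total RNA array that stood apart by 0.80 ± 0.38, 0.14 ± 0.24 and -0.10 ± 0.31.

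In the 2F experiment Nfkbiz rose by 2.39 ± 0.11, Nfkbia by 1.73 ± 0.08 and Relb by 1.41 ± 0.12, 3 of 7 members against 2.64% of all genes. Relb measured 7.45, 7.30 and 7.21 in the 2F experiment, against 6.02, 6.05 and 5.67 before (adjusted p = 0.0003). Tnfaip3, at 5.99, 6.38 and 6.57 in the 2F experiment against 2.97 to 3.48 before, was below the filter and not tested. Nfkbie, Nfkb2, Rela and Ikbkg differed by 0.55 ± 0.10, 0.49 ± 0.11, 0.29 ± 0.10 and 0.19 ± 0.15, under the fold threshold.

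**Figure D5:**
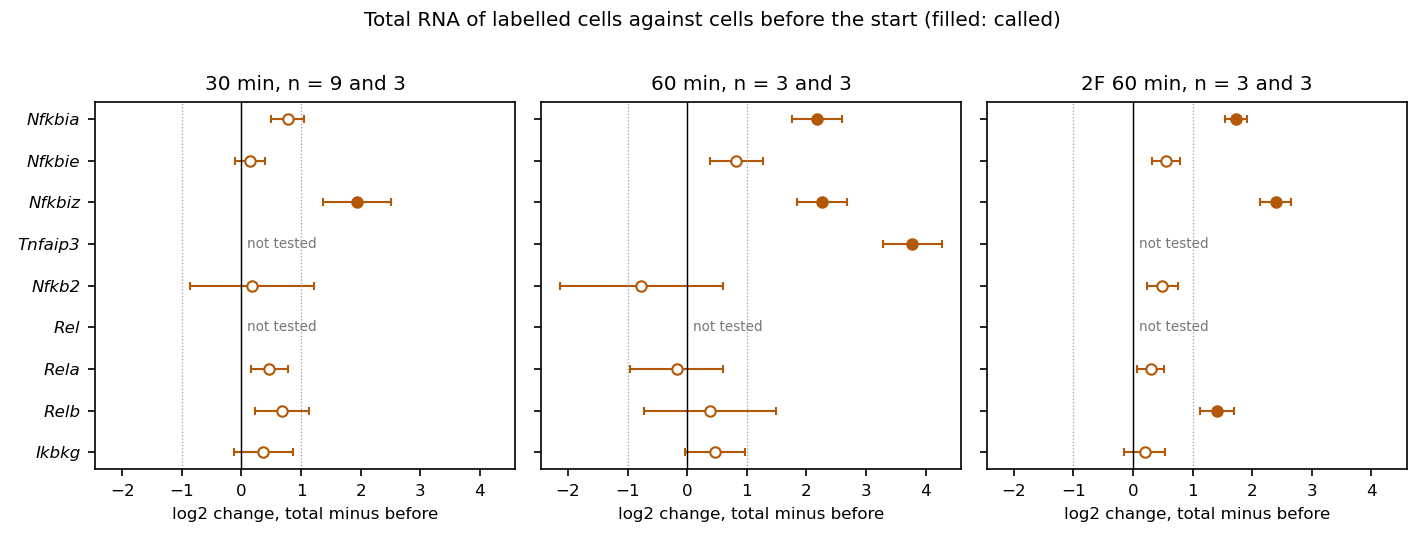
Each panel gives the log2 change of total RNA in labelled cells from cells before the start with its 95% interval at 30 min, 60 min and in the 2F 60 min experiment, with filled points for called changes and dotted lines at 2-fold. Nfkbiz is filled in all 3 panels, Nfkbia in both 60 min panels and Relb in the 2F panel.

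Of the target list 5 of 18 tested genes rose at 30 min, 8 of 19 at 60 min and 10 of 19 in the 2F experiment, against 0.465%, 1.2% and 2.64% of all genes, and none was called lower. Cxcl1 rose by 3.17 ± 0.39 at 30 min and 3.97 ± 0.12 in the 2F experiment, where Lif rose by 4.58 ± 0.24, the cytokine Il6 by 4.37 ± 0.16 and Saa3 by 4.01 ± 0.09. Of 43 signalling genes tested, limma called 0 at 30 min, where 8 had an unadjusted p below 0.05. At 60 min 1 rose (Bcl10, 1.35 ± 0.19) and in the 2F experiment 2 rose (Tlr2, 1.12 ± 0.12, and Bcl10, 1.00 ± 0.08).

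Ikbkg (chrX:74393233-74456792) had 6 probe sets, of which 1454690_at passed the filter in all 15 comparisons. Its group means ran between 4.48 at 15 min and 6.05 in pre-existing RNA. The other 5 had means over all arrays of 2.79 to 4.54. Of these 1421209_s_at and 1435646_at passed in 5 and 3 comparisons of total RNA and were not called, with 0.90 ± 0.23 and 0.87 ± 0.17 at 1 h of actinomycin D the largest changes. Probe set 1421209_s_at measured 2.58 to 4.42 over the newly transcribed arrays against 4.34 to 5.57 over the total RNA arrays of labelled cells. The probe set 1454690_at, with differences of -0.32, -0.08 and 0.27 in the 3 experiments, did not show such a gap.

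Ordered by level over the 11 groups, Nfkbia and Tnfaip3 both had newly transcribed RNA at 60 min first, followed by 2F and 30 min, and cells before the start and both actinomycin D times last. For Nfkbia the 15 min level (11.65 ± 0.22) lay between total RNA at 60 min (11.96 ± 0.13) and in the 2F experiment (11.51 ± 0.05), and it was not separated from the second by more than both SDs (n = 3 each). For Nfkbiz newly transcribed RNA at 30 min came first, at 13.17 ± 0.16 (SD, n = 9), and total RNA in the 2F experiment, at 60 min and at 30 min were not separated. For Nfkbie newly transcribed RNA of the 2F and first 60 min experiments came first, at 8.48 ± 0.09 and 8.30 ± 0.23 (SD, n = 3), and 15 min last, at 5.84 ± 0.18. For Nfkb2, Rel, Rela and Relb newly transcribed RNA of the 2 experiments at 60 min came first, and the pair were not separated in any of the 4. For Ikbkg no neighbours were separated except cells before the start, at 5.41 ± 0.30, above 15 min, at 4.48 ± 0.20.

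As a description over 11 group means that mix RNA fractions and share arrays, Nfkbia correlated with Nfkbiz at r = 0.95 and with Tnfaip3 at 0.92, and Relb with Rela at 0.93. Nfkb2 and Nfkbiz had r = 0.29, and Ikbkg and Nfkbiz -0.33.
Among 5430 genes whose log2 averaged at least 7, the patterns most like Nfkbia were Smad7 (r = 0.99), Angptl4 (0.98) and Dlx2 (0.98), and those most like Nfkbiz were F3 (1.00), Ccn2 (0.99) and Has2 (0.99). Tnfaip3 was nearest to Csrnp1, Hbegf and Arf2 (0.97 to 0.98), Relb to Bag3 (0.98), Sfswap and Nrn1 (0.96 each), and Rela to Ctage5, Tlnrd1 and Atxn7l3 (0.98 each). Nfkbie was nearest to Twist2 (0.97), Pxn (0.96) and Arl2bp (0.95), Nfkb2 to Phlda3 (0.96), Supt6 and Srebf1 (0.95 each), and Ikbkg to Brd9 (0.96), Sptlc2 and Isca2 (0.95 each).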

How the data were processed

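The deposited series table held intensities. Per the submitters' processing notes the authors used GCRMA; its version and settings are not given in the sources used here. Its log2 was taken here with no further normalization. All 31451 probe sets were read and 61 controls left out. Probe sets were named through the platform annotation (25031 with 1 symbol, 690 with several, 5669 with none), and RefSeq's GRCm38.p6 table matched 24934 by Entrez identifier without changing a symbol. Per the labels' protocols, Trizol extracts went through one-cycle target labelling. Depth in reads does not apply, and precision is limited by how many arrays a group had.

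For 15 comparisons, lmFit and eBayes of limma 3.58.1 in R 4.3.3 were run on the arrays compared, with group as the factor. Probe sets needed a mean log2 of 5 (an intensity of 32), and detection calls were not used. Calls needed a 2-fold change and an adjusted p (Benjamini-Hochberg, across every probe set in the comparison) below 0.05. The script was tested on simulated data. Background shares count 1 probe set per gene, the brightest. Half-lives are 60 or 120 min divided by the log2 loss, with limma's 95% interval. Tables were read in Python 3.11.15.

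The members, the signalling list (59 genes, 52 with a probe set) and the target list (38 genes, 29 with a probe set) were chosen with earlier results of these data known. Per comparison up to 6 called genes of a list with the largest change could be named, and 3 genes per member for likeness of pattern. Fos, Myc and Actb are points of comparison.

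The labels do not tie replicate numbers to cultures. Same-numbered arrays deviated together, with r above 0.1 in all pairs, in 6 comparisons: 1 h and 2 h of actinomycin D against before (lowest r 0.143 and 0.259), newly transcribed and pre-existing against total RNA in the first 60 min experiment (0.149 and 0.219), its newly transcribed RNA against that of 30 min (0.195) and its total RNA against before (0.122), and there the replicate block is given where it changed a call. Alternatives were quantile normalization, no filter, a floor at log2 of 5, 1 fit over all arrays, the block, parts of the 30 min arrays and leaving out each array of the groups of 3 in turn, but no single array of the 9 at 30 min. Averaging the 30 min sets and leaving out both arrays that stood apart were added after seeing the data.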

Additional observations from a re-analysis of the deposited data

Results flagged for a closer look

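By the interaction term and the brightest probe sets, the ratio of newly transcribed to total RNA differed between the first 60 min and the 30 min experiment. It did so for Relb (2.57), Nfkb2 (2.15), Rela (1.42), Nfkbie (1.07) and Nfkbia (-0.70). The Nfkbia value was under the fold threshold, and its probe set 1448306_at went the other way. Between the 2F 60 min and the 30 min experiment the ratio differed for Nfkbie (1.53) and Relb (1.25). For the first 60 min experiment none of these was called with the 30 min arrays averaged by set. Nfkbie had 1 total RNA array at 30 min, replicate 9 at 6.37, farther below the other 8 than Dixon's criterion allows. The criterion was applied to 18 sets of values (9 genes in 2 groups of 9 arrays), and chance flags about 1 group in 20.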

How the results depend on the processing

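The actinomycin D calls of Nfkbia and Nfkbiz, the 30 min calls of Tnfaip3, Nfkbiz and Nfkbia in newly transcribed RNA and all member calls in the 2F experiment against its total RNA or cells before the start were made under every alternative run. Directions reversed for uncalled values: Ikbkg at 2 h against 1 h of actinomycin D with quantile normalization (0.14), Rela in total RNA at 60 min without both arrays that stood apart or without replicate 2 of total RNA (0.14), Relb there without replicate 1 of total RNA (-0.18; Relb without replicate 2 was at 0.80 and Rela without replicate 1 at -0.51), and the change in the Tnfaip3 ratio at 60 min with a floor at log2 of 5 (0.13).

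Counts of called probe sets moved by over 1.5 times as follows, and none of these causes was tested beyond the setting itself. Without a filter, 1704 were called against 926 for actinomycin D at 1 h, 2488 against 1500 at 2 h, 2145 against 1360 for pre-existing RNA and 1070 against 644 for 2F total RNA. In 1 fit over all arrays, 3015 were called for pre-existing RNA, 1567 against 345 for total RNA at 60 min and 344 for 2F total RNA. With the 30 min sets averaged, new RNA at 60 min against 30 min had 520 against 2546 (2 members against 4), total RNA at 30 min 44 against 95 (0 members against 1), the ratio at 60 min 0 against 2991 (0 members against 4) and the 2F ratio 667 against 1014. With 30 min arrays 1 to 3 alone these were 306 (2 members), 38, 0 (0 members) and 455 (1 member against 2), and with arrays 4 to 9 the ratio at 60 min had 1861. With the replicate block, new RNA at 60 min against 30 min had 363 (1 member), new 2F RNA against 30 min 903 against 1791 and total RNA at 30 min 29. Without both arrays that stood apart, total RNA at 60 min had 684 and the ratio at 60 min 760 (2 members).

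Leaving out 1 array of the groups of 3 at a time, members called ran from 1 to 2 for actinomycin D at 1 h, 1 to 4 for pre-existing RNA and 2 to 5 for the ratio at 60 min. Probe sets called ran from 777 to 2684 for pre-existing RNA, 53 to 80 for total RNA at 30 min (arrays before the start left out), 37 to 2371 for total RNA at 60 min and 1379 to 4447 for the ratio at 60 min. The Nfkbiz half-life ran from 52.0 to 67.4 min. The half-life from the new fraction ran from 137 to 1484 min for Nfkbia and from 163 to 1334 min for Rela, with no value without replicate 1 of total RNA. With quantile normalization the Nfkbia half-life was 36.6 min over 2 h and 328 min from the new fraction. That setting also changed the split of higher and lower calls, to 222 and 1134 against 81 and 1419 for actinomycin D at 2 h and to 437 and 709 against 343 and 1103 for 2 h against 1 h. Where the numbers did not pair the samples, the block changed 1 member call, Ikbkg in new RNA at 15 min against 30 min (-1.02, adjusted p = 0.017). Where they did, it changed the 3 calls given for new RNA at 60 min against 30 min and no other member call. Against 30 min the block could use replicates 1 to 3 alone. Probe sets near the low end of the arrays, as for Tnfaip3 and Rel before labelling, limit how exactly a fold can be read.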
